A study of Mus musculus with 6 samples.

Results

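The nuclear genes of respiratory complex I were examined in N2a cells after transfection with an siRNA against the circular RNA circRtn4. The genes were taken by a naming rule, as every protein-coding gene of the deposited expression table whose symbol starts with Nduf, and the rule used no measured value. It gave 46 of the 54532 genes listed, of which 22046 are protein-coding. The 46 genes comprise 38 with a subunit name and 8 assembly factors, whose symbols start with Ndufaf. A further 5 Nduf symbols with another biotype stayed outside, among them Ndufb1-ps, which the table lists as a long non-coding RNA.

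N2a is a mouse neuroblastoma cell line, for which the labels give the strain C57BL/6, and the labelled growth medium was MEM with fetal bovine serum. The study's general methods describe a change to differentiation medium with retinoic acid after transfection, and the labels do not say whether the sequenced cells had received it. The study asked which transcripts changed when circRtn4, a circular RNA from the Rtn4 locus described as a sponge of miR-24-3p, was silenced. RNA sequencing was reported for 3 libraries of N2a cells given si-NC, the control siRNA, and 3 given si-circRtn4. The groups share the cell line and the transfection and differ in the siRNA, and 1 siRNA sequence was listed against circRtn4. The labels do not say whether the replicates were separate cultures, so p-values measure the spread between these libraries. In RNA from whole cultures, fewer cells carrying a transcript and less of it per cell cannot be told apart.

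Complex I is the entry point of the mitochondrial respiratory chain. It oxidises NADH, passes the electrons over a flavin and a chain of iron-sulfur clusters to ubiquinone, and pumps protons across the inner membrane. Its N module takes up the NADH, its Q module reduces ubiquinone, and the proximal and distal membrane arms carry the proton channels. Core subunits do the catalysis and are encoded partly in the nucleus and partly in mitochondrial DNA, while accessory subunits surround them. Assembly factors help to build the complex and are absent from the finished enzyme. Neurons depend heavily on the ATP that this chain supplies.

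Sequences of 2 kinds are shown: the small RNAs that the study names, since their seeds can be sought in the Nduf transcripts, and the promoters of 3 genes described below. The siRNA is given as the reverse complement of the listed si-circRtn4 sequence, and the miRNA from RefSeq. Capitals mark the seed, bases 2 to 8.
miR-24-3p: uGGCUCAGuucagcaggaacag
si-circRtn4 guide strand: aAAAGGGTctcatctgaag
Matches to these seeds, CTGAGCC for miR-24-3p and ACCCTTT for the siRNA strand, were sought on the sense strand of the 3′ untranslated region (UTR), taking for each tested gene the longest one annotated. Nduf genes have short 3′ UTRs, with a median of 235 bases against 1169 bases over 10694 genes. A miR-24-3p match stood in 2 of 45 Nduf genes (4.44%) against 19.6% of all genes with a UTR, and a match to the siRNA strand in 1 of 45 (2.22%) against 12.5%. The 3 matches are printed with their surroundings (GRCm38, match in capitals).
Ndufa12, miR-24-3p match at chr10:94221171-94221177, plus strand: attccaacCTGAGCCagacattg
Ndufa13, miR-24-3p match at chr8:69894211-69894217, minus strand: ggcCTGAGCCaacgcaca
Ndufs1, siRNA strand match at chr1:63143810-63143816, minus strand: taacagggACCCTTTttgctaca
For Ndufv3, the gene with the largest fall, the longest 3′ UTR (355 bases) belongs to a transcript that ends in another exon than its main coding transcripts, whose 3′ UTR has 79 bases, and neither seed had a match in either UTR. Levels of the small RNAs were not measured in these libraries.

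The promoters, from 250 bases before to 50 bases after the annotated start, came from RefSeq (GRCm38.p6). They are those of Ndufv3, which fell, and of Ndufa11 and Ndufs3, which hold a searched motif and were called lower only where the replicate number entered the model (the replicate block). Capitals mark a motif of NRF1 (GCGCATGC) in Ndufa11 and of the ETS family, to which GABPA belongs (CCGGAAG), in Ndufs3, on either strand.
Ndufv3, chr17:31519865-31520164, plus strand: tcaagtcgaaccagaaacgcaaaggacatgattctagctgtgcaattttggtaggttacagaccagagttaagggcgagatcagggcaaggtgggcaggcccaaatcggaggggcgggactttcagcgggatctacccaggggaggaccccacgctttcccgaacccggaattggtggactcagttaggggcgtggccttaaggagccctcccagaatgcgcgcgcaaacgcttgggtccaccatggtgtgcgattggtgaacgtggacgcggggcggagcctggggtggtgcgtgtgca
Ndufa11, chr17:56717512-56717811, plus strand: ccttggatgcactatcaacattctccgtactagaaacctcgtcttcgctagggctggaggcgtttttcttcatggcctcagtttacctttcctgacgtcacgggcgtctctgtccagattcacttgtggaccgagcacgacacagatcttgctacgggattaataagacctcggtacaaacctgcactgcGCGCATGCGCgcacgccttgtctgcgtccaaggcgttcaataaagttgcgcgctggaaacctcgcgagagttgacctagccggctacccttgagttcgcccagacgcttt
Ndufs3, chr2:90904672-90904971, minus strand: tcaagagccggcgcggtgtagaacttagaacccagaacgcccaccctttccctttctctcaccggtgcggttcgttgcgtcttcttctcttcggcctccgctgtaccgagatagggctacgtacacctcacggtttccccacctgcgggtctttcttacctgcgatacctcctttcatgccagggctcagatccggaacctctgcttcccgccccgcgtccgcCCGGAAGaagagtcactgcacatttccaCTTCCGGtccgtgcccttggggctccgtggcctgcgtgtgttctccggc
In Ndufa11 the NRF1 letters occurred on both strands, overlapping, at -60 and -58 from the start, and in Ndufs3 the ETS letters lay at -27 and 2. The Ndufv3 window held none of the 4 motifs searched.

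Over the 40 Nduf genes with a promoter in the table, the NRF1 letters were found in 5 genes (12.5%), against 5.55% of the promoters of all tested genes and 2.71% of all promoters. The YY1 letters (AAGATGG) were found in 8 (20%), against 7.37% and 6.34%. The ERR letters (AAGGTCA) were found in 3 (7.5%), against 3.02% and 4.72%. The ETS letters were found in 6 (15%), against 18.5% and 8.86%. These are counts of letters, not of binding, and an Nduf gene can hold more than 1 motif.

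The libraries held 13541198 to 15122063 reads on genes, recovered from the deposited FPKM values (fragments scaled to gene length and library size). The neuroblastoma markers Hand2 (178 to 238 FPKM) and Phox2a (129 to 218 FPKM) were present in every library. The fibroblast, macrophage and astrocyte markers examined reached at most 1.32 FPKM, with Aqp4 listed at 0 throughout and Ptprc at 0 in all but si-NC replicate 3. Of the neuroblastoma markers, 4 were called lower with si-circRtn4. Phox2a was at 206 to 218 FPKM with si-NC and at 129 to 166 with si-circRtn4, and Chgb at 1167 to 1462 and 298 to 478. Dbh was at 3.72 to 8.52 and 0.52 to 0.66 FPKM, and Th at 2.26 to 2.96 and 0.56 to 0.82. Hand2, Tubb3, Stmn2 and Gata3 overlapped between the groups. Their part in the results below was not tested. Rtn4 was at 61.0, 66.8 and 69.8 FPKM with si-NC and at 50.1, 56.7 and 62.7 with si-circRtn4, ranges that overlap. Its limma adjusted p was 0.216 (difference -0.22 in log2(FPKM + 1), SE 0.10). With the replicate block it was 0.0447, in a range of 0.0447 to 0.439 over the alternative analyses. The gene-level value of Rtn4 does not separate the circular from the linear RNA. Si-circRtn4 replicate 1 stood apart for the Nduf genes, holding the lowest value of 28 of the 46, and the results are also given without it.

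Nearly all complex I genes were well expressed. By mean FPKM over the 6 libraries, 15 of the 46 genes exceeded 50, 24 lay between 10 and 50, and 7 lay under 10. Ndufa4, a subunit later placed in complex IV, had the highest level, at a mean of 162.9 FPKM. Its relative Ndufa4l2, a hypoxia-inducible gene, had the lowest, at 0.67 FPKM. Ndufb2 had the lowest FPKM of the complex I subunits, at 1.62 over a listed length of 5628 bases, on 101 to 165 reads a library. Its exons share 145 bases with the same-strand gene Gm42420 and 146 with the opposite-strand gene Braf. How reads on shared bases were counted is not given, so this value need not be the level of its main transcript. Subunit genes had a median level of 41.7 FPKM. The 8 assembly factors were less abundant, with a median of 8.53 FPKM and a range from 5.40 for Ndufaf7 to 21.1 for Ndufaf8.

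FPKM divides by a listed gene length, which for 42 of the 46 genes equals the summed exons of GENCODE M21 and for 4, Ndufv3 among them, is shorter. This limits comparisons of levels between genes. For Ndufb7 the listed length was 7.26 times that of the principal transcript, for Ndufb5 and Ndufb8 4.63 times and for Ndufs1 3.04 times, so these genes appear lower per length than their main transcript would. Ndufab1, the mitochondrial acyl carrier protein, has the processed pseudogene Ndufab1-ps, which held 15.2% of the reads summed over the pair. The comparison between groups uses the same length for a gene in every library.

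**Figure D1:**
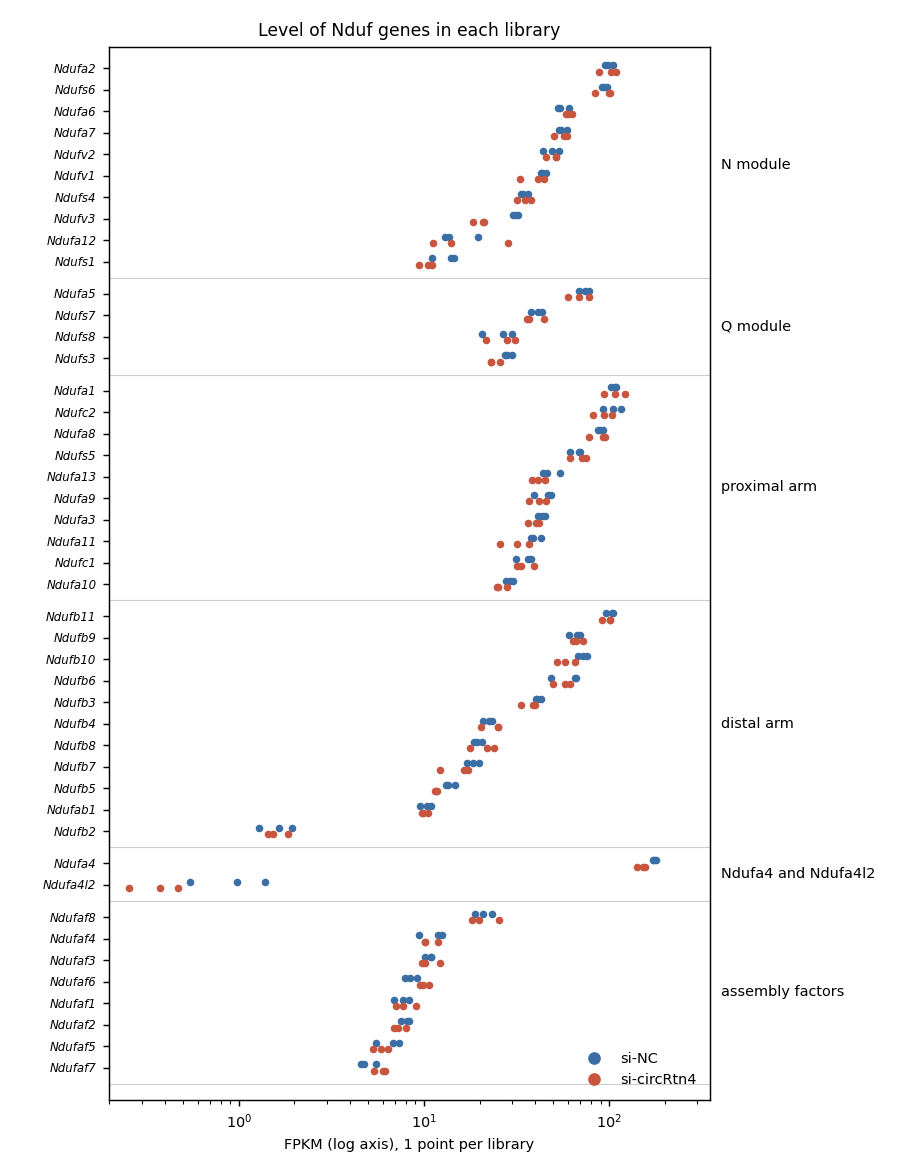
FPKM (log axis) of 45 of the Nduf genes in each library, with 1 blue point per si-NC library and 1 red point per si-circRtn4 library, grouped by module. Most genes lie above 10 FPKM with interleaved groups, and the assembly factors sit lower than most subunits. Ndufv3 has 3 red points near 20 FPKM, below its blue points. Some other genes, Ndufa11, Ndufb10 and Ndufa4 among them, also have groups that do not overlap.

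Ndufv3 fell in the cells given si-circRtn4. It encodes an accessory subunit of the N module that sits beside the NADH-binding flavoprotein. It was at 30.2, 31.3 and 32.1 FPKM with si-NC and at 18.3, 20.9 and 21.2 FPKM with si-circRtn4. Every si-circRtn4 value was under the lowest si-NC value, and the mean was 64.6% of the si-NC mean (31.2 ± 0.99 against 20.2 ± 1.59 FPKM, SD, n = 3 in each group). On the log2(FPKM + 1) scale the difference was -0.61 (SE 0.080), with a 95% interval from -0.79 to -0.42 and a limma adjusted p of 0.0057. An exact permutation test of the 6 values gave p = 0.1, the smallest that 3 libraries against 3 allow. The call held in all 13 alternative analyses, with adjusted p from 0.0011 to 0.0314.

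Of the 37 subunit genes tested, Ndufv3 was the 1 called lower at an adjusted p under 0.05, where 4.82% of all 12749 tested genes were called lower. No subunit gene was called higher, against 4.36% of all genes. At an unadjusted p under 0.05, 7 subunit genes were lower, against 12.8% of all genes, and 0 were higher, against 13.1%. The 7 were Ndufv3, Ndufa11, Ndufs1, Ndufb10, Ndufs3, Ndufb5 and Ndufa4. Without si-circRtn4 replicate 1 there were 4, and over the 6 analyses that leave out a library there were 1 to 9. The shares of all genes given here are from the fit with all 6 libraries, so these counts have no share beside them.

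The Ndufv3 gene lies at chr17:31520115-31531326 on the plus strand, and GENCODE M21 gives it 5 transcripts. The longest protein-coding one is 1582 bases long with a coding length of 1404 bases, and it carries an exon of 1092 bases at chr17:31527310-31528401. A shorter one skips that exon, is 493 bases long and has a coding length of 312 bases. The deposited value is summed over the gene, so a change of either transcript cannot be told from a change of the other.

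The catalytic partners of Ndufv3 in the N module had smaller differences than Ndufv3. Ndufv1, which binds NADH and the flavin, was at 42.7, 43.6 and 45.7 FPKM with si-NC and at 33.2, 41.6 and 44.3 FPKM with si-circRtn4. The ranges overlapped and only si-circRtn4 replicate 1 lay clearly lower (difference -0.16, SE 0.11, adjusted p 0.429). Ndufv2, an iron-sulfur subunit, was at 43.9, 49.2 and 53.6 FPKM with si-NC and at 45.6, 51.5 and 51.7 FPKM with si-circRtn4 (difference 0.02, SE 0.096, adjusted p 0.910). The ratio of Ndufv3 to Ndufv1 was 0.706, 0.718 and 0.703 with si-NC and 0.553, 0.503 and 0.480 with si-circRtn4. That of Ndufv3 to Ndufv2 was 0.688, 0.637 and 0.60 against 0.402, 0.407 and 0.411. These ratios within a library do not depend on a common scaling factor of the library, and in both the groups were separate.

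**Figure D2:**
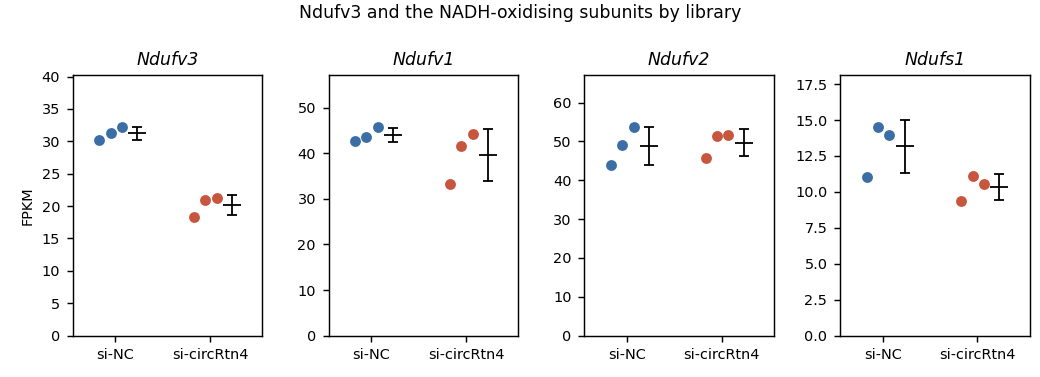
FPKM of Ndufv3, Ndufv1, Ndufv2 and Ndufs1, each panel with its own axis from 0, with 1 point per library and the mean ± SD beside the points. Ndufv3 is the gene whose si-NC libraries (30.2 to 32.1) and si-circRtn4 libraries (18.3 to 21.2) lie farthest apart relative to their spread.

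Ndufs1, the large core subunit that carries iron-sulfur clusters of the N module, was at 11.0, 14.5 and 14.0 FPKM with si-NC. With si-circRtn4 it was at 9.38, 11.1 and 10.6 FPKM. Si-NC replicate 1 lay within the si-circRtn4 range, and the difference of -0.31 (SE 0.11) had an adjusted p of 0.136. With the replicate number as a block the adjusted p was 0.0245, within a range of 0.0245 to 0.343 over the 13 alternatives. Ndufs1 is the gene with the match to the siRNA strand printed above. Its listed exons share 489 bases with the opposite-strand gene Ino80dos, and whether the counting used strand is not given in the sources used here. The other N module genes ran from -0.01 for Ndufa7 to 0.11 for Ndufa6 and Ndufa12, and none was called.

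Ndufa12, an accessory subunit at the junction of the N and Q modules, holds a miR-24-3p match and had the largest standard error of the tested Nduf genes. It was at 19.5, 13.7 and 13.0 FPKM with si-NC and at 11.2, 28.5 and 13.9 FPKM with si-circRtn4. The value in si-circRtn4 replicate 2 exceeded that of every other library, and the difference of 0.11 (SE 0.31) became -0.26 without that library.

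In the Q module, no gene passed the adjusted threshold. Ndufs3, a core subunit of the hydrophilic arm, was at 28.2, 29.9 and 27.4 FPKM with si-NC and at 23.0, 25.9 and 23.0 FPKM with si-circRtn4. The groups did not overlap (difference -0.24, SE 0.078, adjusted p 0.10). With the replicate block the adjusted p was 0.0318, in a range of 0.0318 to 0.287 over the alternatives. Ndufs7, an iron-sulfur subunit next to the quinone site (-0.07, SE 0.099) and Ndufs8 (0.06, SE 0.17) overlapped between the groups, and Ndufs7 took the opposite sign, 0.02, when values were rescaled to TPM, which sets the length-scaled values of each library to the same sum.

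Among the genes of the proximal membrane arm, Ndufa11 had the largest difference. It encodes an accessory subunit at the face where complex I meets complex III in supercomplexes. Ndufa11 was at 37.8, 42.9 and 38.9 FPKM with si-NC and at 25.7, 37.1 and 31.7 FPKM with si-circRtn4. The groups did not overlap, although si-circRtn4 replicate 2 came close to the si-NC range (difference -0.34, SE 0.13, adjusted p 0.152). The block gave an adjusted p of 0.0366, in a range of 0.0366 to 0.349. The other genes of this arm ran from -0.20 for Ndufa13, the other gene with a miR-24-3p match, to 0.06 for Ndufs5, all with overlapping groups.

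In the distal membrane arm, Ndufb10, an accessory subunit on the intermembrane-space side, was at 68.3, 76.4 and 72.7 FPKM with si-NC and at 52.5, 58.1 and 65.3 FPKM with si-circRtn4. The groups did not overlap (difference -0.30, SE 0.096, adjusted p 0.0949). With the block the adjusted p was 0.0337, in a range of 0.0337 to 0.262. Ndufb7, another accessory subunit facing the intermembrane space, was at 19.8, 18.5 and 17.2 FPKM against 12.2, 17.3 and 16.4 FPKM, with overlap (difference -0.27, SE 0.13, adjusted p 0.243). Ndufb5 was at 13.4, 14.7 and 13.2 FPKM against 11.5, 11.6 and 11.8 FPKM, without overlap (difference -0.22, SE 0.071, adjusted p 0.0953), but its listed exons share 616 bases with the opposite-strand gene Mrpl47. Ndufb5, Ndufb3 and Ndufb8 were named after their values were seen. Ndufb8, a marker often used for assembled complex I at the protein level, was at 19.4, 20.6 and 18.7 FPKM against 17.8, 23.8 and 22.0 FPKM (difference 0.10, SE 0.11, adjusted p 0.616).

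Ndufb1-ps, outside the rule by its biotype and named after its values were seen, was at 30.1, 28.0 and 32.4 FPKM with si-NC and at 34.6, 39.2 and 37.6 FPKM with si-circRtn4. Its groups were separate, and the difference of 0.29 (SE 0.084) had an adjusted p of 0.0736. With the block the adjusted p was 0.0463, in a range of 0.0197 to 0.232 over the alternatives.

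Groups that did not overlap were found for 7 subunit genes with lower values, against 15.5% of all tested genes. They were Ndufv3, Ndufa11, Ndufb10, Ndufs3, Ndufb5, Ndufb3 and Ndufa4. Among all 45 Nduf genes tested, 2 had higher values without overlap, Ndufaf6 among them, against 16.2% of all genes. With the replicate block, 5 subunit genes were called lower, against 9.75% of all genes, and no Nduf gene was called higher, against 9.29%. These were Ndufv3, Ndufs1, Ndufs3, Ndufa11 and Ndufb10.

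Ndufa4, counted among the 38 by its symbol, was at 172.5, 178.7 and 174.6 FPKM with si-NC and at 141.5, 153.2 and 156.9 FPKM with si-circRtn4. The groups did not overlap (difference -0.22, SE 0.073, adjusted p 0.11), and quantile normalization alone among the alternatives brought the adjusted p under 0.05, to 0.0442 in a range up to 0.294. Ndufa4l2 was listed at 0.545, 1.39 and 0.979 FPKM with si-NC and at 0.257, 0.469 and 0.377 FPKM with si-circRtn4, on 4 to 22 reads a library. Its mean was under the minimum of 1 FPKM, so it was the 1 Nduf gene not tested, and without that minimum its adjusted p was 0.255.

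**Figure D3:**
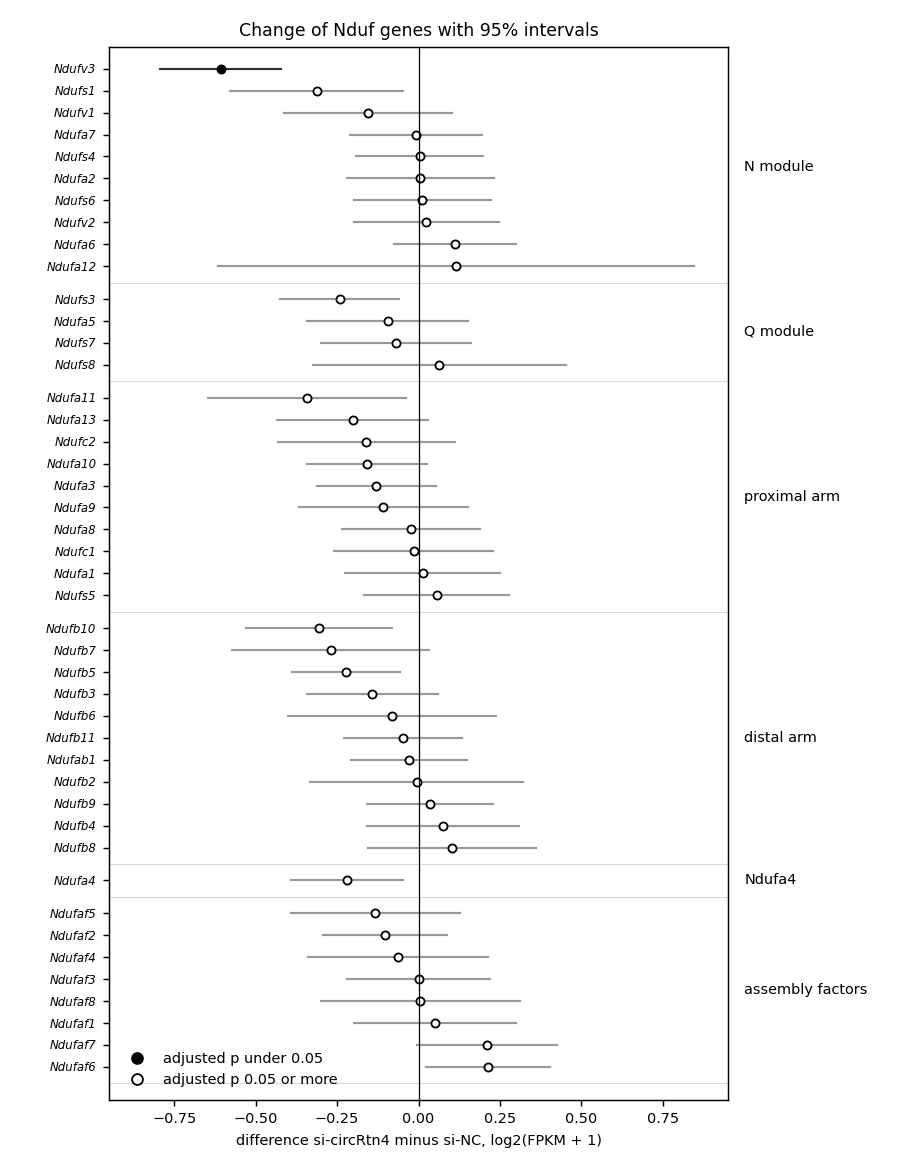
Difference between si-circRtn4 and si-NC on the log2(FPKM + 1) scale for 44 of the 45 Nduf genes tested, with 95% intervals from limma, grouped by module. The filled circle marks Ndufv3 at -0.61, the 1 gene with an adjusted p under 0.05, and 36 of the 44 intervals drawn include 0.

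Of the 8 assembly factors, 0 were called in either direction by limma. Over all genes, 4.82% were called lower and 4.36% higher. At an unadjusted p under 0.05, 1 was higher (13.1% of all genes) and 0 were lower (12.8%), and the limma-voom fit also called 0. Ndufaf6, an assembly factor that acts early on the Nd1-containing part, was at 9.23, 8.42 and 7.93 FPKM with si-NC and at 9.56, 10.6 and 9.91 FPKM with si-circRtn4. The groups did not overlap (difference 0.21, SE 0.082, adjusted p 0.153). Ndufaf7, a mitochondrial protein methyltransferase, was at 5.50, 4.55 and 4.75 FPKM against 6.02, 5.41 and 6.15 FPKM, with slight overlap (difference 0.21, SE 0.092, adjusted p 0.204).

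The other assembly factors had smaller differences, and in each the groups overlapped. Ndufaf3 and Ndufaf4, which act together on the Q module, differed by 0.00092 (SE 0.094) and by -0.06 (SE 0.12). The sign turned for Ndufaf3 under quantile normalization and for Ndufaf4 under TPM. Ndufaf5, which hydroxylates Ndufs7, differed by -0.13 (SE 0.11), and its partner Ndufaf8 by 0.0050 (SE 0.13). Ndufaf2, a relative of Ndufa12, differed by -0.10 (SE 0.082), and its exons share 1955 bases with the opposite-strand B230220B15Rik. Ndufaf1, an early factor of the membrane arm, differed by 0.05 (SE 0.11).

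Taken as groups and without a test, the subunit genes had a median difference of -0.05, against 0.0020 over all tested genes, and the median of the assembly factors was 0.0030. Of the 37 subunit genes, 24 were lower and 13 higher. After rescaling to TPM 16 were lower and 21 higher, and the median of all genes rose to 0.08. TPM without the gene Gm23935 gave 21 of 37 lower. Relative to all genes, the subunit median was -0.050 in the main analysis, -0.038 with TPM and -0.047 with TPM without Gm23935. Proximal arm genes were lower in 8 of 10 (median -0.12) and distal arm genes in 8 of 11 (-0.05). TPM rescaling gave 6 of 10 and 4 of 11, or 7 of 10 and 7 of 11 without Gm23935. Lower values were seen for 3 of 5 Q module genes (-0.07) and 4 of 10 N module genes (0.0041). TPM rescaling gave 2 of 5 and 3 of 10, or 3 of 5 and 3 of 10 without Gm23935. The 95% intervals lay within ±0.5 for 39 of the 45 genes tested and within ±1 for 45, with a median half-width of 0.22. By listed length, the median was 0.0048 for the 11 Nduf genes under 1000 bases, -0.01 for the 17 below 2000, -0.08 for the 12 below 4000 and -0.22 for the 5 longer ones, while over all genes it ran from 0.01 to -0.0039 across these classes.

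Most subunit genes had their lowest value in the same library. Of the 46 Nduf genes, 28 (60.9%) had their lowest value in si-circRtn4 replicate 1, against 19.5% of all tested genes, and 27 of the 28 were subunit genes. Relative to the median of all genes, the subunit median was 0.05, 0.05 and 0.03 in the si-NC libraries, -0.17 in si-circRtn4 replicate 1, and 0.06 and -0.01 in replicates 2 and 3. Without si-circRtn4 replicate 1, 19 of 37 subunit genes were lower and their median was -0.00021, against 0.0084 for all genes. Without si-circRtn4 replicate 2, 32 of 37 were lower with a median of -0.10. Ndufv3 still fell by 0.54 without replicate 1, with an adjusted p of 0.0199 in the range given above. Without that library Ndufa11 was at -0.21 (adjusted p 0.293), Ndufb10 at -0.23 (adjusted p 0.211), Ndufs1 at -0.25 (adjusted p 0.304) and Ndufs3 at -0.21 (adjusted p 0.222). Ndufaf6, at 0.24 (adjusted p 0.193), differed from si-NC by more than with all libraries.

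**Figure D4:**
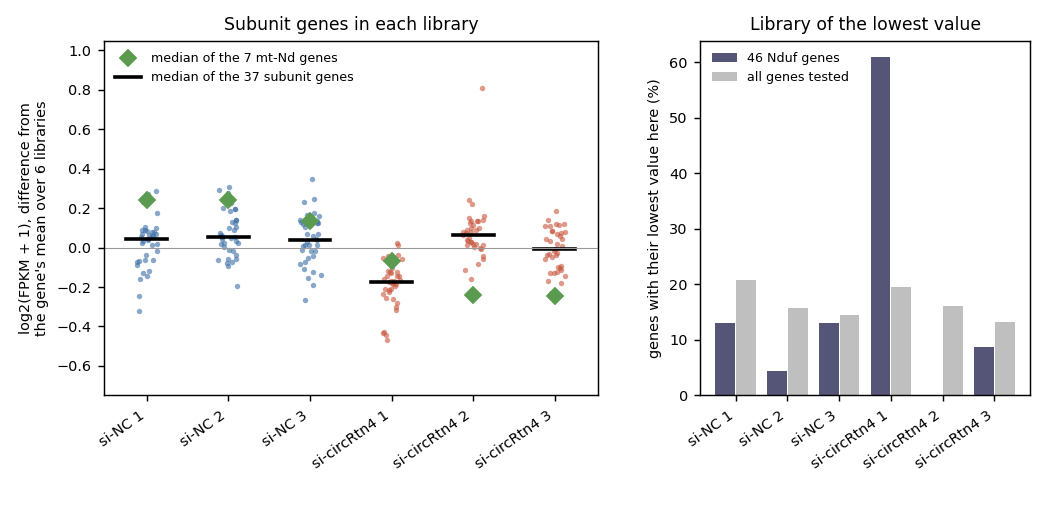
Left, difference of each of the 37 tested subunit genes from its own mean over the 6 libraries (log2 scale), with the median as a bar and the median of the 7 mt-Nd genes as a diamond. Right, share of genes with their lowest value in each library, where 60.9% of the Nduf genes and 19.5% of all genes fall on si-circRtn4 replicate 1.

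The complex I genes of mitochondrial DNA, which encode the membrane core, are no members by the naming rule. All 7 were lower with si-circRtn4, with a median of -0.39, a direction that held under each scaling tried, and 3 were called, against 4.82% of all genes. The 7 genes lie on the same DNA, so their changes need not be independent of each other. Mt-Nd1, a core subunit next to the quinone site, was at 1825, 1951 and 1864 FPKM with si-NC and at 1429, 1367 and 1361 FPKM with si-circRtn4 (difference -0.44, SE 0.085, adjusted p 0.0211). Mt-Nd2 fell by 0.39 (SE 0.084, adjusted p 0.0295) and mt-Nd3 by 0.65 (SE 0.14, adjusted p 0.0328) on the log2 scale. Mt-Nd3, listed at 348 bases, had far lower values, at 13.1, 13.8 and 15.2 FPKM against 10.9, 7.02 and 8.10 FPKM. Mt-Nd3 had 38 to 74 reads a library, and limma-voom did not call it. Mt-Nd4l, listed at 297 bases, was also low, at a si-NC mean of 19.0 FPKM. That of mt-Nd4, whose coordinates overlap those of mt-Nd4l, was 1239 FPKM. Whether the low values of these short genes are levels of the RNA was not tested. The 3 calls were less stable than that of Ndufv3, holding in 8, 5 and 5 of the 13 alternatives. Without si-circRtn4 replicate 1, mt-Nd1 and mt-Nd3 were called (adjusted p 0.0417 and 0.0166) and mt-Nd2 was not (adjusted p 0.0531). With the block 6 of the 7 were called, against 9.75% of all genes, mt-Nd4l being the exception (-0.10, SE 0.19 with the block), and mt-Nd4l was higher by 0.11 without si-NC replicate 1.

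The mitochondrial and nuclear genes did not have their lowest values in the same library. Relative to all genes, the mt-Nd median was 0.25, 0.24 and 0.13 in the si-NC libraries and -0.06, -0.24 and -0.25 in si-circRtn4 replicates 1 to 3. Si-circRtn4 replicate 1, lowest for the subunit genes, was therefore the highest of its group for the mt-Nd genes.

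Assembly factors without an Nduf name were followed for 13 genes. By limma 0 were called, against 4.82% of all genes lower and 4.36% higher. At an unadjusted p under 0.05, 1 was higher, against 13.1% of all genes. Higher values were seen for 8 of the 13, against 6421 of the 12749 genes tested. After TPM rescaling, where the median of all genes rose to 0.08, 11 were higher, and 10 with TPM without Gm23935. The largest positive difference was that of Tmem126a, which takes part in the assembly of the distal membrane arm, at 0.33 (SE 0.088, adjusted p 0.0586). Tmem126a was called in 4 of the 13 alternatives, namely both TPM rescalings, limma-voom and the replicate block, with adjusted p from 0.0217 to 0.155 over all 13. The largest negative one was that of Acad9, a factor of the early membrane arm, at -0.14 (SE 0.088, adjusted p 0.386). Of the regulators of respiratory chain genes, 7 of 8 were tested. None of the 7 was called by limma, against 4.82% of all genes lower and 4.36% higher. At an unadjusted p under 0.05, 3 were lower, against 12.8% of all genes, and 0 were higher, against 13.1%. Esrra, the nuclear receptor that binds the ERR motif, had the largest negative difference, at -0.27 (SE 0.10, adjusted p 0.152). With the block its adjusted p was 0.0434, in a range of 0.0434 to 0.334. The block called 2 of the 7 lower, against 9.75% of all genes. The other was Yy1, named after its values were seen (limma adjusted p 0.0887, and 0.0363 with the block). Pprc1, a coactivator of the PGC-1 family, had the largest positive one, at 0.17 (SE 0.099, adjusted p 0.321). Ppargc1a was listed at or near 0 in every library and was not tested.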

How the data were processed

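RNA was sequenced from 6 libraries of N2a cells, grouped by their labels. The authors deposited FPKM values per gene. The submitters' processing notes name Bowtie 0.12.2 and the builds mm8 and mm9 without a role, whereas the coordinates of 98.3% of the genes equal those of GENCODE M21 (GRCm38), and those were used. Counting tool and strand setting are not given in the sources used here. A further 6 columns, of other samples, were not used. All values were whole multiples of 1 read (tolerance 0.1), which gave 13541198 to 15122063 reads a library. Precision is limited by 3 libraries a group.

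Log2(FPKM + 1) was tested with limma 3.58.1 in R 4.3.3 (eBayes with trend) over the 12749 genes whose mean reached 1 FPKM, with Benjamini-Hochberg adjustment over all of them and a call at 0.05. The code was tested on simulated data. Members and lists were chosen with earlier results of these data known. Named were nuclear core subunits, assembly factors, Ndufa4 and Ndufa4l2, called genes, the 5 largest falls and rises, the highest and lowest level and, of the other lists, called genes and the largest change each way. Modules and lists were written by hand, and Coa1 was not among the genes listed. Some items the rule names are not reported here.

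Replicate numbers come from the labels, which do not say what they share. The correlation of libraries, after subtracting each group mean, was 0.331, 0.190 and 0.226 for equal numbers and at most 0.00913 otherwise. Subtracting the mean makes the deviations within a group cancel, so these values are not independent and do not settle whether libraries were paired. The main fit has no replicate term, and a fit with the replicate block was added as an alternative. Alternatives were a pseudocount of 0.1, no minimum level, TPM with and without the gene Gm23935, quantile normalization, limma-voom on the recovered reads, the replicate block, and leaving out each library.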

Additional observations from a re-analysis of the deposited data

How the results depend on the processing

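Ndufv3 was called under all 13 alternatives. The number of subunit genes called lower was 1 in the main analysis, 2 with quantile normalization (with Ndufa4) and 5 with the replicate block. It was 1 to 2 when a library was left out (with Ndufs1 added without si-NC replicate 1). Of all 12749 genes tested, 615 were called lower in the main analysis, 640 with quantile normalization and 1243 with the block. When a library was left out, 217 to 419 of all genes were called lower. The block called none of the 8 Nduf assembly factors and no protein-coding Nduf gene higher, although Tmem126a and Ndufb1-ps were called higher under it. The numbers of subunit genes called higher and of assembly factors called stayed at 0 throughout. The assembly factor median relative to all genes ranged from -0.107 without si-circRtn4 replicate 2 to 0.050 without replicate 3, around 0.0010 with all libraries. Of 390 alternative values for the 30 tested genes named by the rule, 17 changed sign, all for genes that were not called.

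When libraries were left out, differences ranged from -0.261 to 0.377 for Ndufa12, -0.0391 to 0.121 for Ndufaf1, -0.0883 to 0.0598 for Ndufaf3, -0.180 to 0.0139 for Ndufaf4, -0.127 to 0.102 for Ndufaf8, -0.0822 to 0.207 for Ndufs8, -0.0502 to 0.0909 for Ndufv2 and -0.344 to 0.111 for mt-Nd4l. Quantile normalization gave Ndufaf3 -0.0014, and TPM gave Ndufaf4 0.0225 and Ndufs7 0.0214. The cause was not tested. Without the minimum level the adjusted p of mt-Nd1 was 0.548. Precision was limited by 3 libraries a group, with 95% intervals of a median half-width of 0.22.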
